A study of Mus musculus with 10 samples.

Results

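Olig1 and Olig2 are neighbouring genes on mouse chromosome 16 that are present in 3 copies in the Ts65Dn mouse, a model of Down syndrome. Their expression in the adult hippocampus was examined together with that of 5 factors of the oligodendrocyte lineage that remain in 2 copies, namely Olig3, Sox10, Nkx2-2, Sox8 and Zfp488. The 7 genes were chosen by name, each gene being represented by its measured row with the highest mean, and they are 7 of the 19936 genes measured. All 7 were found on the array, each by a single probe set (a transcript cluster), and no filter on low signal removed any of them.

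Hippocampal RNA came from 5 Ts65Dn mice and 5 littermate controls, and each mouse had an Affymetrix Mouse Gene ST array of its own. All were males aged 16 weeks on an F1 hybrid B6C3B background, and the right and left hippocampus of each mouse gave 1 RNA. Ts65Dn mice carry a small extra chromosome with part of chromosome 16 (Mmu16) and the part of chromosome 17 (Mmu17) next to the centromere, so that Mmu17 genes whose human counterparts are not on the Down syndrome chromosome are in 3 copies too. Controls have 2 copies of all these genes. The values are log2 signals, in which a gene expressed in proportion to 3 copies against 2 differs by 0.585.

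Oligodendrocytes make the myelin sheaths of axons in the brain and arise from dividing precursor cells that persist in adults. Olig1 and Olig2 are basic helix-loop-helix transcription factors. Olig2 is needed to specify precursors, and Olig1 acts in their maturation and in the repair of myelin. Both are expressed together with Sox10, a transcription factor of the SOX family that activates myelin genes. Sox8 is a close relative of Sox10 with overlapping roles, Nkx2-2 is a homeodomain factor of differentiating precursors, and Zfp488 is a zinc finger protein that works with Olig2. Olig3, in contrast, acts in the embryonic spinal cord and hindbrain and is not a gene of the adult oligodendrocyte.

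In the GRCm38 annotation Olig2 lies at chr16:91225550-91228677 and Olig1 at chr16:91269769-91271939, inside the Mmu16 segment (chr16:84718281-97962627). Sox10 lies at chr15:79154913-79164490, Zfp488 at chr14:33967070-33979034, Nkx2-2 at chr2:147176485-147195434 and Olig3 at chr10:19356539-19358604. Sox8, at chr17:25565893-25570686, is on the chromosome of the other extra segment but beyond its end at 8986648. Probe positions within the genes were not used, so whether a signal came from a coding exon or from a UTR was not determined.

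Basic helix-loop-helix factors such as Olig2 recognise the E-box (CANNTG), and SOX factors recognise short motifs that include ACAAAG and ACAATG. RefSeq promoters (GRCm38.p6, 250 bases before to 50 after the start) matched 5 of the 7 genes by symbol, and both motifs were searched on both strands. The E-box letters were present in 72.3% and the SOX letters in 28.6% of 32851 promoters of this length. The Nkx2-2 promoter held 3 E-boxes, those of Olig3, Sox8 and Zfp488 1 each and that of Olig2 0, while the SOX letters were found once, in the Olig2 promoter, where they read as the complement CATTGT and overlapped no E-box. A match describes the letters only and not binding. The Nkx2-2 promoter searched lies inside the annotated gene, whose 5′ end on the minus strand is 147195434, and the region before that end was not searched. The promoter of Olig2, the gene in 3 copies, is shown with the SOX letters in capitals (chr16:91225300-91225599, plus strand). That of Nkx2-2, with the most E-boxes of the promoters searched, is shown with its E-boxes in capitals (chr2:147186353-147186652, minus strand), each 5′ to 3′.
Olig2: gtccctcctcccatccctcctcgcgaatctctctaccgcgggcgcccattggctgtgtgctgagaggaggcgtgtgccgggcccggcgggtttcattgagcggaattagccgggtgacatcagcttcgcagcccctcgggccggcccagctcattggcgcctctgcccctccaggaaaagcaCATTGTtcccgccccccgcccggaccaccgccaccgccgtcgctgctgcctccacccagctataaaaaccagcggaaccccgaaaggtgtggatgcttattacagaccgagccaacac
Nkx2-2: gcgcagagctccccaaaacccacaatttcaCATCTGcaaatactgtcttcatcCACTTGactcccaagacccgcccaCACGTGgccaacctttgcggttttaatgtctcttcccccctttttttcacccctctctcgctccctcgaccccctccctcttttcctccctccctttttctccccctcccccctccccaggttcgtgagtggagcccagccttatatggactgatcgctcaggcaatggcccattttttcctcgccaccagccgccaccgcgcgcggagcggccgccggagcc

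Olig1 showed a small difference that separated the genotypes. Its log2 signal was 10.12, 10.05, 9.94, 9.99 and 10.23 in Ts65Dn replicates 1 to 5, against 9.80, 9.92, 9.80, 9.85 and 9.78 in control replicates 1 to 5. All 5 Ts65Dn mice lay above all 5 controls, although the gap between the lowest Ts65Dn mouse and the highest control (9.94 against 9.92) was narrow. The mean was 10.07 ± 0.11 in Ts65Dn mice and 9.83 ± 0.06 in controls (SD, n = 5 each), a log2 difference of 0.24 ± 0.05 (SE). This is 1.18-fold, with a 95% interval of 1.09 to 1.28 that does not reach the 1.5 of the copy number. Olig1 did not pass the threshold of the fit over all genes (limma, adjusted p = 0.241, unadjusted p = 0.00112). An exact permutation test of Olig1 alone gave p = 0.00794, the smallest that 5 against 5 mice allow. A rank method of the kind the study used, which orders fold changes over pairs of arrays, called both Olig1 and Olig2 as higher. Its calls are at an unadjusted p under 0.05, from ranks scaled by their spread over all genes. The share of genes it calls is therefore largely fixed in advance, unlike that of the adjusted limma threshold. That method called 5.56% of all genes, 2.91% as higher and 2.65% as lower. Of all genes, 0.281% passed the adjusted threshold, 3.33% had an unadjusted p under 0.05 and 0.878% had groups that did not overlap.

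Olig2 was higher on average but its groups overlapped. Its log2 signal was 9.50, 9.35, 9.30, 9.30 and 9.41 in Ts65Dn mice and 9.49, 9.11, 9.12, 9.25 and 8.91 in controls. Every Ts65Dn mouse lay above the second highest control, while control replicate 1 lay just below the highest Ts65Dn mouse. The mean was 9.37 ± 0.08 in Ts65Dn mice and 9.18 ± 0.22 in controls (SD, n = 5 each). The log2 difference was 0.20 ± 0.09 (SE), or 1.15-fold with a 95% interval of 0.998 to 1.32, and it did not pass in the limma fit (adjusted p = 1, unadjusted p = 0.0530, exact permutation p = 0.0873). Without control replicate 1 the difference was 0.28 and without control replicate 5, the lowest, it was 0.13.

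The difference between the genotypes was of similar size for Olig1 and Olig2. The log ratio of Olig1 to Olig2 was 0.69 ± 0.07 in Ts65Dn mice and 0.65 ± 0.22 in controls (SD, n = 5 each). The groups differed by 0.04 with a 95% interval of -0.20 to 0.28 (exact permutation p = 0.778, two-sided), an interval that includes differences as large as the fold change of either gene.

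**Figure D1:**
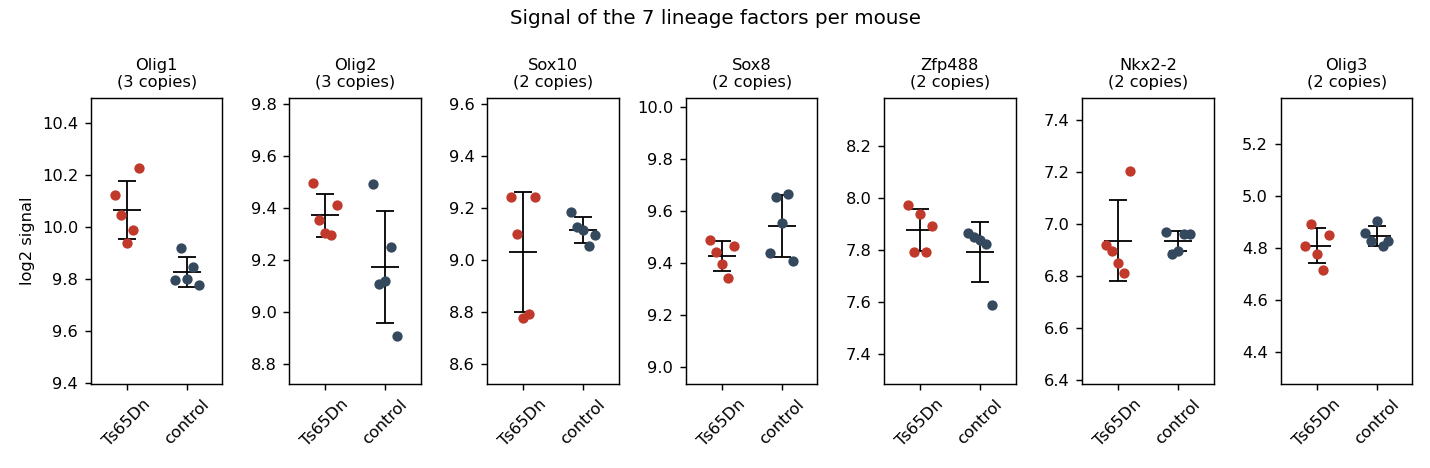
Log2 signal of the 7 lineage factors in each mouse, with Ts65Dn (red) on the left and control (dark blue) on the right of each panel. Points are mice and bars are the mean and SD (n = 5 per genotype), and every panel spans the same range of log2 signal around its own mean. Only in the Olig1 panel do the groups not overlap.

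The comparison with the 5 factors in 2 copies asks whether the extra copies of Olig1 and Olig2 were accompanied by higher expression of their partners. None of the 5 passed the threshold (limma, 0 of 5, and 0 at an unadjusted p under 0.05), and the groups overlapped for all 5. Of the genes outside both extra segments, 0.0152% passed and 2.94% had an unadjusted p under 0.05. Groups that did not overlap were found for 0.878% of all genes, so counts of 0 among 5 genes are near these shares. The rank method called 1 of the 5 factors, Sox8, as lower, where it called 2.65% of all genes as lower. The upper end of the 95% interval of the fold lay between 1.01 for Sox8 and 1.16 for Zfp488.

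Sox10 had a log2 signal of 9.24, 9.10, 8.78, 8.79 and 9.24 in Ts65Dn mice and 9.19, 9.13, 9.12, 9.05 and 9.10 in controls. Ts65Dn replicates 3 and 4 lay below every control and replicates 1 and 5 above every control, so the SD was 0.23 in Ts65Dn mice and 0.05 in controls. The mean difference was -0.08 ± 0.09 (log2, SE), or 0.943-fold with a 95% interval of 0.818 to 1.09 (limma, adjusted p = 1, exact permutation p = 0.437).

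Sox8, the relative of Sox10, had values of 9.49, 9.44, 9.40, 9.34 and 9.47 in Ts65Dn mice and 9.44, 9.65, 9.55, 9.67 and 9.41 in controls. In this case 3 controls lay above all Ts65Dn mice and the other two fell among them. The mean difference was -0.12 ± 0.06 (log2, SE), or 0.922-fold with a 95% interval of 0.845 to 1.01 (limma, adjusted p = 1, unadjusted p = 0.0650, exact permutation p = 0.0952).

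Zfp488, the zinc finger partner of Olig2, had values of 7.97, 7.79, 7.94, 7.79 and 7.89 in Ts65Dn mice and 7.87, 7.85, 7.84, 7.82 and 7.59 in controls. Of the Ts65Dn mice 3 lay above all controls and the other two below 4 of them. Its fold was 1.06 with a 95% interval of 0.967 to 1.16 (exact permutation p = 0.238).

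Nkx2-2 was at 6.92, 6.89, 6.85, 6.81 and 7.20 in Ts65Dn mice and 6.97, 6.88, 6.89, 6.96 and 6.96 in controls. The means were 6.93 in both, since 1 Ts65Dn mouse (replicate 5) lay far above the rest, and the fold was 1.00 with a 95% interval of 0.904 to 1.11 (exact permutation p = 0.992). Without that mouse the log2 difference was -0.07.

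Olig3, the embryonic member of the family, ranged from 4.72 to 4.89 in Ts65Dn mice and from 4.81 to 4.90 in controls. Its array signal was at the 7.75 percentile of all genes, close to the lower end of the scale, where ratios are compressed. The log2 difference was -0.04 ± 0.04 (SE) and carries little information at this signal.

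The fold of Olig1 was compared directly with that of Sox10, which is expressed in the same cells but is in 2 copies. The log ratio of Olig1 to Sox10 was 1.03 ± 0.14 in Ts65Dn mice (0.88 to 1.20) and 0.71 ± 0.08 in controls (0.61 to 0.79; SD, n = 5 each). The groups did not overlap and differed by 0.32 (95% interval 0.16 to 0.49), with an exact permutation p of 0.00794, which was 0.0238 after Benjamini-Hochberg adjustment over the 3 log ratios tested. With the mice paired by replicate number the same difference had an exact p of 0.0625. This is the smallest that 5 pairs allow in this exact test, so the test cannot pass here. For Olig2 to Sox10 the log ratio was 0.34 ± 0.16 in Ts65Dn mice and 0.06 ± 0.19 in controls, a difference of 0.28 (95% interval 0.02 to 0.54) that did not pass (exact permutation p = 0.0556, adjusted p = 0.0833). Its unadjusted exact p was 0.0476 without Ts65Dn replicate 5 (difference 0.32) and 0.0238 without control replicate 1 (difference 0.34). Without any other single mouse that p lay between 0.0635 and 0.111. Ts65Dn replicates 3 and 4 were the lowest in Sox10 of all mice. Leaving both out was an alternative chosen after seeing the data. The Olig1 to Sox10 difference was then 0.23 (exact permutation p = 0.0179, the smallest for 3 against 5 mice). The Olig2 to Sox10 difference was 0.17 (exact permutation p = 0.25), and the Sox10 difference turned to 0.08.

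To place Olig1 and Olig2 among genes that share their extra copy, a list of 12 genes on either side of them was described. On one side lie Synj1, a phosphoinositide phosphatase of synaptic vesicle recycling, Paxbp1 and 4932438H23Rik. On the other lie the receptor chains Ifnar2, Il10rb, Ifnar1 and Ifngr2 of the interferon and interleukin-10 families, then Tmem50b, Dnajc28, the purine synthesis enzyme Gart, the splicing factor Son and the replication factor Donson. All 12 listed genes had higher means in Ts65Dn mice, 7 passed the threshold (limma) and in 8 every Ts65Dn mouse lay above every control. In the whole Mmu16 segment 33.1% of 127 measured genes passed as higher and 40.9% had all Ts65Dn mice above all controls.

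Of the genes that passed, Ifnar2 was 1.57-fold higher in Ts65Dn mice (adjusted p = 0.0346), Il10rb 1.45-fold (adjusted p = 0.000864), Ifngr2 1.40-fold and Ifnar1 1.39-fold (adjusted p = 0.00184 each). Synj1 was 1.34-fold higher (adjusted p = 0.000900), Gart 1.32-fold (adjusted p = 0.000864) and Son 1.26-fold (adjusted p = 0.0215). Dnajc28 at 1.36-fold (adjusted p = 0.0647), Tmem50b at 1.33-fold, Paxbp1 at 1.29-fold and Donson at 1.22-fold did not pass. The dim 4932438H23Rik, with a mean log2 signal of 5.49 in Ts65Dn mice and 5.39 in controls, was at 1.08-fold. Another measured gene of this stretch, the dim Gm9881 between 4932438H23Rik and Olig2, was not on the list and went the other way, with a mean signal of 5.18 and a log2 difference of -0.08 ± 0.04 (SE, limma adjusted p = 1).

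The median log2 difference of the 12 listed neighbours was 0.41, against 0.24 for Olig1 and 0.20 for Olig2. Of these neighbours 11 had a larger fold than either gene, the exception being the dim 4932438H23Rik. The difference in fold was tested per mouse as a log ratio, in a comparison chosen after the values were seen. For Olig1 the log ratio to Il10rb differed by -0.30 and that to Synj1 by -0.18 between the genotypes (exact permutation p = 0.00794 each, adjusted p = 0.0816 over the 24 ratios). At an unadjusted p under 0.05 Olig1 differed from 7 neighbours and Olig2 from 3, but 0 passed after adjustment. Leaving out Ts65Dn replicate 5, the highest in Olig1, let 7 pass for Olig1 and 1 for Olig2, and leaving out control replicate 5 let 2 and 3 pass.

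**Figure D2:**
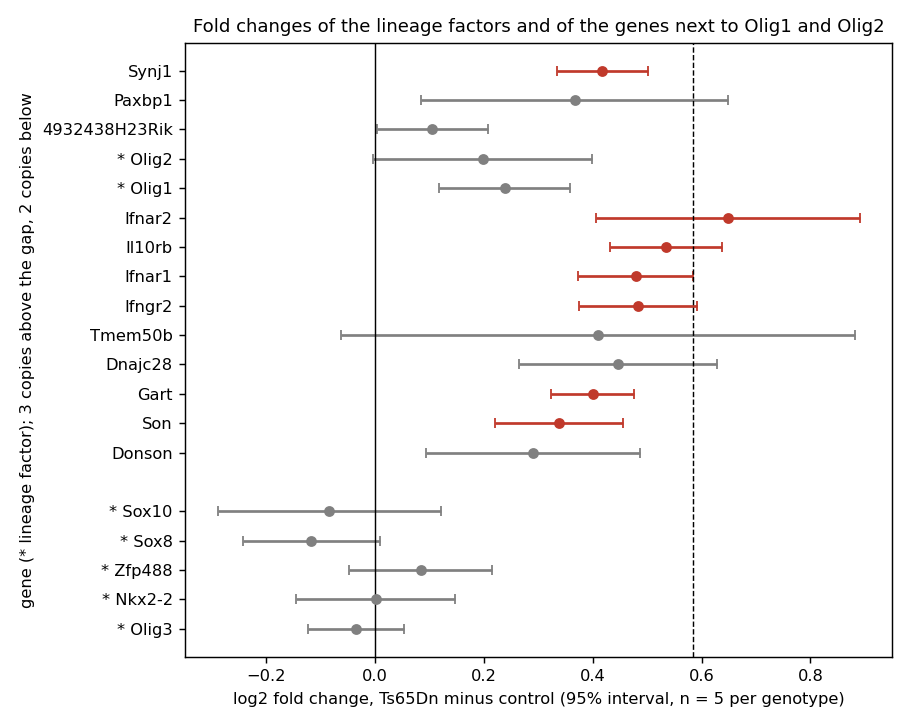
Log2 fold change (Ts65Dn minus control) with its 95% interval (n = 5 per genotype) for the 14 genes in 3 copies in chromosomal order and for the 5 lineage factors in 2 copies. Red marks adjusted p under 0.05, the solid line no difference and the dashed line a 1.5-fold difference. Olig2 and Olig1 (asterisks) lie to the left of 11 of the 12 listed neighbours, and Gm9881, which was not listed, is not drawn.

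Over the Mmu16 segment, 58 genes had a mean signal above the median of all genes (7.40), as did Olig1 and Olig2. Of these 40 passed the threshold, and the median difference over all 58 was 0.40 (1.32-fold). By fold, Olig1 was number 52 and Olig2 number 55 of the 58. An upper limit below 1.5-fold was common, being found for 36 of the 58, so Olig1 and Olig2 share it with most of the measurable genes in 3 copies. The SE of the log2 difference was larger than that of Olig2 for 8 of the 58 genes.

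**Figure D3:**
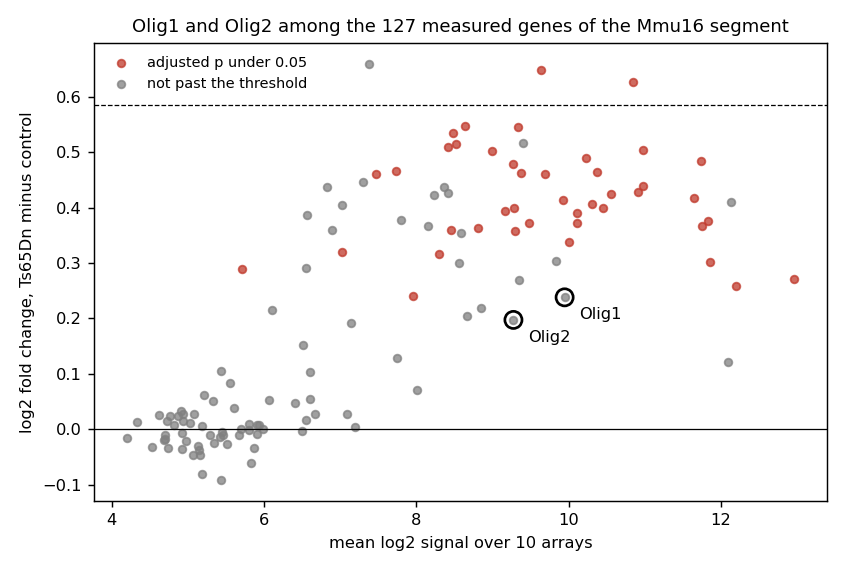
Log2 fold change (Ts65Dn minus control) of the 127 measured genes of the Mmu16 segment against their mean log2 signal over 10 arrays, with adjusted p under 0.05 in red and the dashed line at 1.5-fold. Olig1 and Olig2 (circled) lie among the brighter genes but below most of them in fold change.

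Genes that act with or after the Olig factors were then described in lists, some of which share genes (Pdgfra, Gpr17, Ptprz1, Sox6, Tcf7l2, Bmp4, Fgfr3 and Sox9). In a whole tissue, fewer cells of a type and less RNA per cell cannot be told apart. No gene of the 5 lists of the lineage passed the threshold, where 0.0152% of the 19778 genes outside both extra segments did and 2.94% had an unadjusted p under 0.05. The median log2 difference of all genes was -0.00, with 47.6% of genes above 0.

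Other regulators of the lineage in 2 copies, such as SOX, HES, ID, NFI and GLI factors, had a median difference of -0.02, with 18 of 42 measured genes above 0. An unadjusted p under 0.05 was found for 2 genes, both lower in Ts65Dn mice. These were the effectors of hedgehog signalling Gli1, with a log2 difference of -0.12 ± 0.05 (SE, unadjusted p = 0.0327), and Gli2, with -0.17 ± 0.07 (unadjusted p = 0.0364). Sox6, which holds precursors back from maturation, followed with -0.08 ± 0.04. The rank method called 1 of the 42 as higher and 4 as lower, against 2.91% and 2.65% of all genes.

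Of 30 signals and receptors of the lineage 24 had a difference below 0, and the median was -0.05. The Notch ligand Jag1 had the smallest p. Its mean was 7.19 ± 0.07 in Ts65Dn mice and 7.33 ± 0.08 in controls (SD, n = 5 each), a log2 difference of -0.15 ± 0.05 (SE), and all Ts65Dn mice lay below all controls (exact permutation p = 0.00794, limma adjusted p = 1). The Notch ligand Dll1 had -0.11 ± 0.06 and the receptor phosphatase Ptprz1 had -0.09 ± 0.04. The rank method called 5 of the 30 as lower and 0 as higher, where it called 2.65% of all genes as lower.

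Precursor markers had a median of -0.05, with 17 of 20 below 0. Pdgfra, the receptor that defines precursors, had a log2 signal of 9.14 in both genotypes. The list mean per mouse lay between 8.89 and 8.93 in Ts65Dn mice and between 8.93 and 8.97 in controls, and the ranges overlapped only through replicate 1 of each genotype. Among the listed genes Dcn varied most between mice, with an SD of 0.51 in Ts65Dn mice and 0.37 in controls. Its part in the list mean was not tested. The proteoglycan Cspg5 had a log2 difference of -0.13 ± 0.04 (SE, unadjusted p = 0.0136) and the complement-related C1ql1 one of -0.14 ± 0.06 (unadjusted p = 0.0330). Ncan, a proteoglycan that neurons and astrocytes also make, went the other way with 0.20 ± 0.07 (unadjusted p = 0.0139). Whether other cell types contribute to the signal of the lower genes, such as Cspg5, was not tested either. The rank method called 1 of the 20 as higher and 4 as lower (5.56% of all genes in either direction).

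Markers of newly formed oligodendrocytes had a median of -0.02, with 5 of 16 genes above 0 and 0 at an unadjusted p under 0.05. Enpp6, a marker of cells that have just begun to differentiate, was at 7.47 ± 0.44 in Ts65Dn mice and 7.85 ± 0.26 in controls (SD, n = 5 each), a log2 difference of -0.37 ± 0.19 (SE, unadjusted p = 0.0780). Bmp4 had -0.17 ± 0.11 and Sirt2 -0.06 ± 0.04. By the rank method 1 of the 16 was called, as lower, where 2.65% of all genes were.

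Myelin and mature oligodendrocyte genes had a median of -0.06, with 28 of 36 below 0 and 0 at an unadjusted p under 0.05. Mbp, a main protein of myelin, was at 12.45 in Ts65Dn mice and 12.49 in controls. The smallest p-values were those of the protease Klk6 (-0.29 ± 0.14), Ninj2 (0.14 ± 0.09) and Nipal4 (-0.16 ± 0.11). By the rank method 1 of the 36 was called as higher and 2 as lower, against 2.91% and 2.65% of all genes. The mean of the list per mouse was 9.86, 9.73, 9.45, 9.59 and 9.96 in Ts65Dn replicates 1 to 5, against 9.72, 9.78, 9.72, 9.85 and 9.80 in control replicates 1 to 5. Ts65Dn replicates 3 and 4, the lowest in Sox10, were the lowest mice here too, and Ts65Dn replicates 1 and 5 were the highest.

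**Figure D4:**
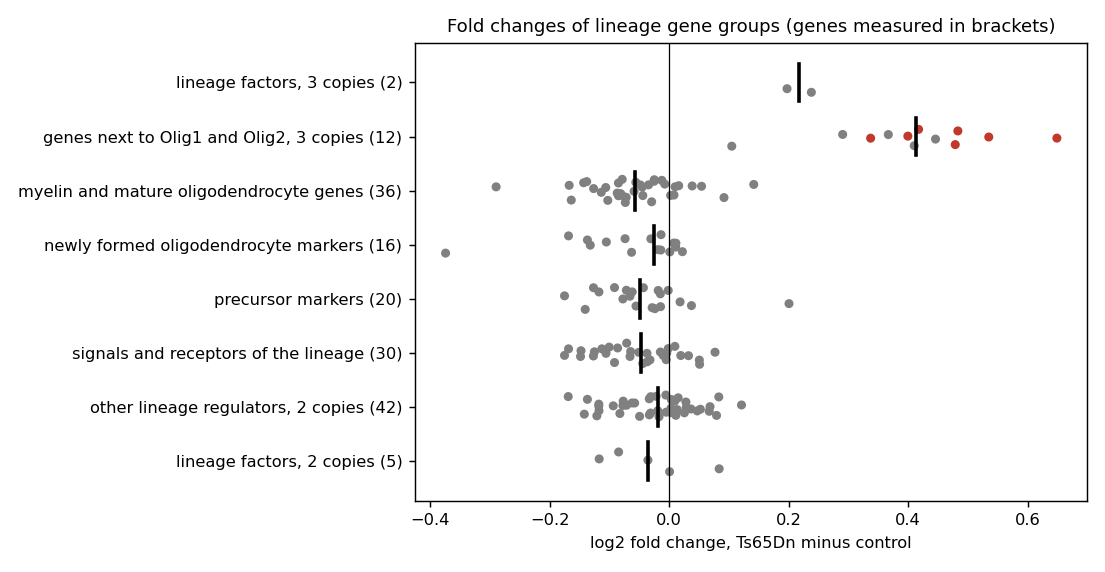
Log2 fold change (Ts65Dn minus control) of the genes of each lineage list, with the list median as a black line and the number of genes measured in brackets, and with adjusted p under 0.05 in red. The lists in 2 copies have medians between -0.06 and -0.02, and the lists in 3 copies have medians of 0.22 and 0.41. Single genes overlap, since Ncan in 2 copies (0.20) lies to the right of 4932438H23Rik in 3 copies (0.10).

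Whether mice that were high in 1 factor were high in another was examined on values centred on the mean of their genotype (n = 10 mice, exact permutation within genotypes, Benjamini-Hochberg over 6 relations). None of the 6 passed adjustment over all 10 mice. Each r without the 2 mice farthest from the median kept the genotype means of all 10 mice. Where mice were otherwise left out, the rest were centred again. Olig1 and the myelin mean had r = 0.87 (p = 0.00944, adjusted p = 0.0567) and rho = 0.78 (p = 0.0360, adjusted p = 0.125), and r = 0.94 without the 2 mice farthest from the median of Olig1. This relation passed without control replicate 2 (adjusted p = 0.0312), 4 (adjusted p = 0.0302) or 5 (adjusted p = 0.0354), with r from 0.88 to 0.95. Without any other single mouse the adjusted p lay between 0.0667 and 0.172. Without Ts65Dn replicates 3 and 4, left out after seeing the data, r was 0.70 (adjusted p = 0.483). Within genotypes r was 0.98 among the Ts65Dn mice and 0.29 among the controls. For Olig1 and Sox10 r was 0.78 (p = 0.0535, adjusted p = 0.0887) and rho 0.73 (p = 0.0634, adjusted p = 0.127), and r was 0.83 without 2 mice. The positive relation of Olig1 and Sox10 was seen among the Ts65Dn mice and not among the controls.

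Sox10 and the myelin mean had r = 0.85 (exact permutation p = 0.0591, adjusted p = 0.0887) and rho = 0.62 (p = 0.169, adjusted p = 0.203). Without the 2 mice farthest from the median of Sox10, which were Ts65Dn replicates 3 and 4, r was 0.66. That value kept the genotype means of all 10 mice, so Ts65Dn replicates 1, 2 and 5 all lay above 0 in both. It therefore includes an offset between the genotypes. The Ts65Dn mice had the wider spread in both, and the pooled value hides opposite directions, positive among the 5 Ts65Dn mice and negative among the 5 controls. Among controls the mouse with the highest myelin mean, replicate 4, had the lowest Sox10. With the same 2 mice left out after seeing the data and the rest centred again, r was 0.24 for Sox10 and the myelin mean. For Olig1 and Sox10 it was 0.40, so both coefficients were lower without those mice, which were chosen for low values. With only Ts65Dn replicate 3 left out, r of Olig1 and Sox10 was 0.67, and with only replicate 4 left out it was 0.76.

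With Sox10, Olig2 had r = 0.42 (exact permutation p = 0.0252, adjusted p = 0.0756) and rho = 0.66 (p = 0.0417, adjusted p = 0.125), and r = 0.67 without 2 mice. Without control replicate 4 this relation passed (r = 0.45, adjusted p = 0.0250). Without any other single mouse its adjusted p lay between 0.0901 and 0.172. With Olig1 r was 0.24 (p = 0.388, adjusted p = 0.466) and rho 0.52 (p = 0.140, adjusted p = 0.203), and r was 0.43 without 2 mice. For Olig2 and the precursor mean r was 0.03 (p = 0.942, adjusted p = 0.942) and rho 0.14 (p = 0.724, adjusted p = 0.724). For that pair r was 0.83 without control replicates 1 and 5, the 2 mice farthest from the median of Olig2. It was 0.74 without control replicate 1 alone and 0.0054 without control replicate 5 alone, so its value rests on control replicate 1. The precursor mean includes Dcn, the gene of that list that varied most, and the part of Dcn in these values was not tested.

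**Figure D5:**
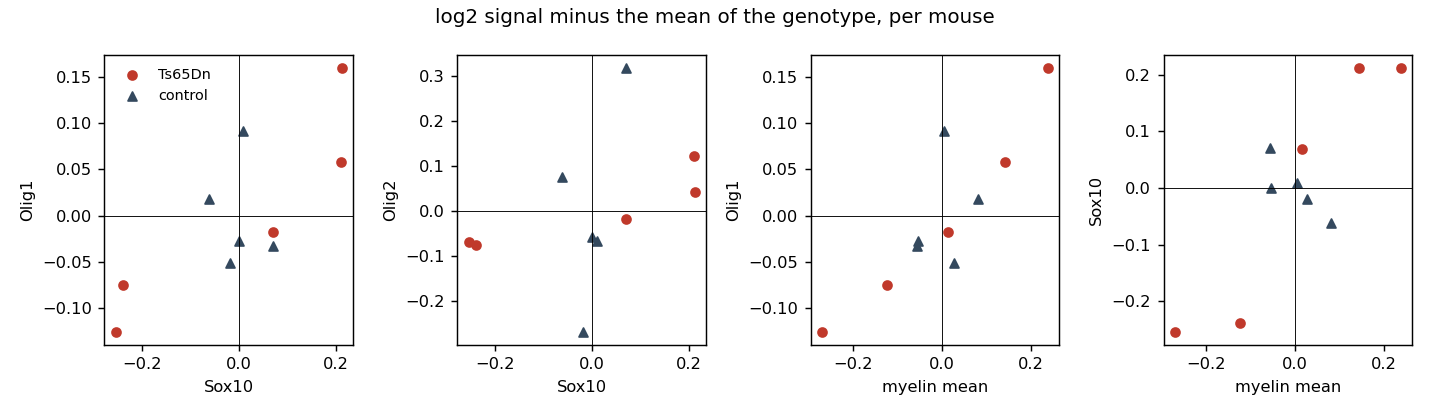
Log2 signal of each mouse minus the mean of its genotype for Olig1 against Sox10, Olig2 against Sox10, Olig1 against the myelin mean and Sox10 against the myelin mean. Red circles are Ts65Dn mice and dark triangles are controls (n = 5 each), and the Ts65Dn mice span the wider range of Sox10 and of the myelin mean.

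By the same centred values over 10 mice and 9971 genes above the median signal, the genes most like Olig1 were Map4k4 (r = 0.95), Foxn3 (r = 0.94) and Pik3c2b (r = 0.93). The closest to Olig2 were Mlxip (r = 0.97), Nxt1 (r = 0.94) and Scrt1 (r = 0.94). Those of Sox10 were the SOX factor Sox21 (r = 0.98), Rfx4 (r = 0.97) and Ttyh2 (r = 0.97). These are the highest of many coefficients and describe these arrays only.

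The mean of the 15 neuron markers lay between 11.58 and 11.60 in Ts65Dn mice and between 11.56 and 11.60 in controls, and that of the 15 astrocyte markers between 10.42 and 10.51 in Ts65Dn mice and between 10.42 and 10.52 in controls. Microglia markers had a median log2 difference of 0.05 with 11 of 14 above 0, vessel markers 0.05 with 9 of 14, and ependymal markers 0.03 with 6 of 10. Choroid plexus markers varied most. Their mean ranged from 6.54 to 8.93 in Ts65Dn mice and from 6.56 to 8.70 in controls, and 17 of 17 measured genes were above 0 with a median of 0.23, among them Clic6 and Kcne2, which are in 3 copies. The 2 Ts65Dn mice lowest in Sox10 were at 6.54 (replicate 3) and 8.40 (replicate 4) in choroid plexus markers. The part of these markers in the results on Olig1, Olig2 and Sox10 was not tested.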

How the data were processed

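Total RNA of the hippocampi of 10 mice was hybridised to Affymetrix Mouse Gene ST arrays. The authors deposited log2 signals from RMA. This method subtracts background, gives all arrays the same signal distribution and combines the probes of a probe set, and it compresses the ratios of dim genes. RMA, limma and mm10 appear in the submitters' processing notes without versions. Each of the 10 value columns belonged to 1 mouse, and the number of arrays limits the precision. Nothing in the labels names a scan date or slide, so no batch was tested.

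Of 35556 rows, the 23410 with at least 1 gene symbol were fitted with limma 3.58.1 in R 4.3.3 (lmFit and eBayes, genotype only, two-sided, Benjamini-Hochberg over all rows, threshold 0.05). The row with the highest mean stood for a gene, which gave 19936 genes. Single values and log ratios were compared by exact permutation over all 252 allocations of mice, with scipy 1.17.1. The fit was tested on simulated data. The study's differential test ranks fold changes over pairs of arrays. A rank method of that kind over 25 pairs was programmed here as an alternative to limma, with calls at an unadjusted p under 0.05. Further alternatives concerned which rows were tested, the removal of dim rows, 3 normalizations, variance models, thresholds, the replicate number as a block and leaving out each mouse.

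The members and lists were chosen with earlier results of these data known. The genes named are the 7 members, the 12 genes next to Olig1 and Olig2, the 3 with the smallest p of each lineage list and the 3 most correlated with Olig1, Olig2 and Sox10. Pdgfra, Dcn, Mbp, Clic6 and Kcne2 were named besides. Plots were drawn with matplotlib 3.10.9.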

Additional observations from a re-analysis of the deposited data

Results flagged for a closer look

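Among 32 sets of 5 values (members and list means in each genotype), 3 held a mouse that stood apart from the others of its genotype by Dixon's test, which flags about 1 set in 20 by chance. Nkx2-2 had a log2 signal of 7.203 in Ts65Dn replicate 5, the highest, where the next Ts65Dn mouse was at 6.917. Zfp488 had a log2 signal of 7.591 in control replicate 5, the lowest, where the next control was at 7.823. The mean of the markers of newly formed oligodendrocytes was 8.659 in control replicate 5, the highest, where the next control was at 8.602.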

How the results depend on the processing

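Over 25 results, 529 alternative values were computed, of which 495 kept their direction and their side of the threshold. Olig1 missed the threshold under every other setting of the limma fit (log2 difference 0.20 to 0.27 without 1 mouse). Its lowest limma adjusted p over the planned settings was 0.128, without Ts65Dn replicate 3. Without Ts65Dn replicates 3 and 4, which were also the lowest Ts65Dn mice in Olig1, it was 0.0992 (log2 difference 0.30). The rank method, at an unadjusted p under 0.05, called Olig1 (0.24), Olig2 (0.20) and Sox8 (-0.12). In either direction it called 5.56% of all genes and 1 of the 5 factors in 2 copies. Of the lists it called 5 of 42 other regulators, 5 of 30 signals and receptors and 5 of 20 precursor markers. It also called 1 of 16 markers of newly formed cells, 3 of 36 myelin genes and 11 of the 12 genes listed next to Olig1 and Olig2. The deviations of same-numbered mice from their genotype means correlated at 0.507, 0.269, 0.325, 0.0313 and 0.459, and 4 of the 5 Ts65Dn mice (all but replicate 4) were closest to the control of their own number. This is a hint of pairing from the data, but the labels tie the numbers to nothing and 1 pair was near 0, so the mice were treated as unpaired. With the number as a block 76 rows passed, against 74 without it, and the exact p of the Olig1 to Sox10 difference (0.32) was 0.0625, the smallest that 5 pairs allow. Without 1 mouse, Nkx2-2 ranged from -0.066 to 0.032, the log ratio of Olig1 to Olig2 from -0.047 to 0.095 and that of Olig2 to Sox10 from 0.22 to 0.34. The correlation of Olig2 and Sox10 ranged from 0.32 to 0.51, that of Olig1 and the myelin mean from 0.78 to 0.95 and that of Olig2 and the precursor mean from -0.20 to 0.74. The number of neighbours whose larger fold passed adjustment ranged from 0 to 7 for Olig1 and from 0 to 3 for Olig2. After a second quantile normalization, Olig2 with Sox10 (r = 0.47) and Olig1 with the myelin mean (r = 0.86) passed, both at an exact permutation adjusted p of 0.0473. With the mean of a gene's rows Olig2 and the precursor mean had r = -0.034. Without Ts65Dn replicates 3 and 4, chosen for their low myelin mean after seeing the data, Sox10 was at 0.080, Olig3 at 0.0060, and r was -0.054 for Olig2 with the precursor mean, 0.24 for Sox10 with the myelin mean, 0.40 for Olig1 with Sox10, 0.056 for Olig1 with Olig2 and 0.70 for Olig1 with the myelin mean. The fewer mice and the choice of those low in Sox10 bear on these values by construction, and for the other changes the cause was not tested.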
